A study of Danio rerio with 3 samples.

Results

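Wells of sorted zebrafish fin endothelial cells were split by how much immediate-early RNA they held, and the wells at the high end were compared with those at the low end across the other genes. The share E of a well is its count of unique molecular identifiers (UMIs, each standing for 1 captured transcript) of egr1, fosab, fosb, junba and junbb, as a percentage of all its UMIs. Wells that the authors list as analysed and that hold at least 500 UMIs were ranked by E within each plate. The top 25% made the high wells and the bottom 25% the low wells. Of 1152 wells on the 3 plates, 1036 were listed and 672 reached 500 UMIs. The 167 high wells were 72, 67 and 28 wells of plates 1, 2 and 3, the 167 low wells were again 72, 67 and 28, and 338 wells lay between. Because measured levels of these 5 genes chose the wells, their levels in these classes are a description, and the main test concerns the other genes. Each of the 5 was tested only between classes ranked without it.

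Immediate-early genes are transcribed within minutes of a stimulus, without new protein synthesis, because the factors that switch them on are already in the cell. Many encode transcription factors: Egr1 is a zinc-finger factor, and Fos and Jun proteins pair to form AP-1. A next tier encodes proteins that limit the response, such as phosphatases that inactivate MAP kinases, and RNA-decay factors that shorten the life of these transcripts. In endothelium the programme is known to respond to growth factors, shear stress and wounding, and in many tissues to enzymatic digestion. Which stimulus acted on these cells was not tested.

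All wells come from 1 group of samples. For each plate, 80 anal fins of immature fish at stage II-III were dissected, digested with Liberase, trypsin and DNase, and sorted for dsRed driven by fli1a, an endothelial ETS factor whose reporter activity is not confined to endothelium. Libraries were made by MARS-seq, which tags the 3' ends of poly(A) RNA. Separate fish for each plate are not stated in the labels, so p-values refer to the spread between 3 plates, which may be technical. The 3 plates carry the same 384 barcodes and share a sequencing batch.

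High and low wells were of similar depth. Median depth of high wells was 1245.5, 1316 and 853.5 UMIs in plates 1, 2 and 3, and that of low wells 1289, 1380 and 795.5. Summed over wells, high wells held 102788, 99610 and 25990 UMIs and low wells 114712, 104801 and 29040, so plate 3 supplied the least. Of 22 pan-endothelial marker genes with a row, 1 was without a UMI in the high wells and 1 in the low wells. Their summed level was 10517, 11013 and 11351 counts per 1000000 UMIs (CPM) in high wells, against 8656, 9217 and 5957 in low wells. Low wells of plate 3 stood apart, since 7 of its 28 low wells held at least 1% of their UMIs from neutrophil or macrophage markers, against 0 of 28 high wells. In plate 1 this held for 0 of 72 high wells and 1 of 72 low wells, and in plate 2 for no well of either class.

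The lower edge of the high wells was close to the wells it left out. The lowest E among high wells was 0.758%, 0.776% and 0.965% in plates 1, 2 and 3, and the highest E among middle wells was 0.755%, 0.775% and 0.951%. The highest E among low wells was 0.233%, 0.252% and 0.164%, and the lowest among middle wells 0.234%, 0.258% and 0.173%. The classes are thus adjoining ranges of E set by rank, and were not defined as cell types. High wells had a median of 15, 14 and 13.5 UMIs of the 5 genes in plates 1 to 3 and low wells 1, 2 and 1, and 18, 12 and 9 low wells had none.

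**Figure D1:**
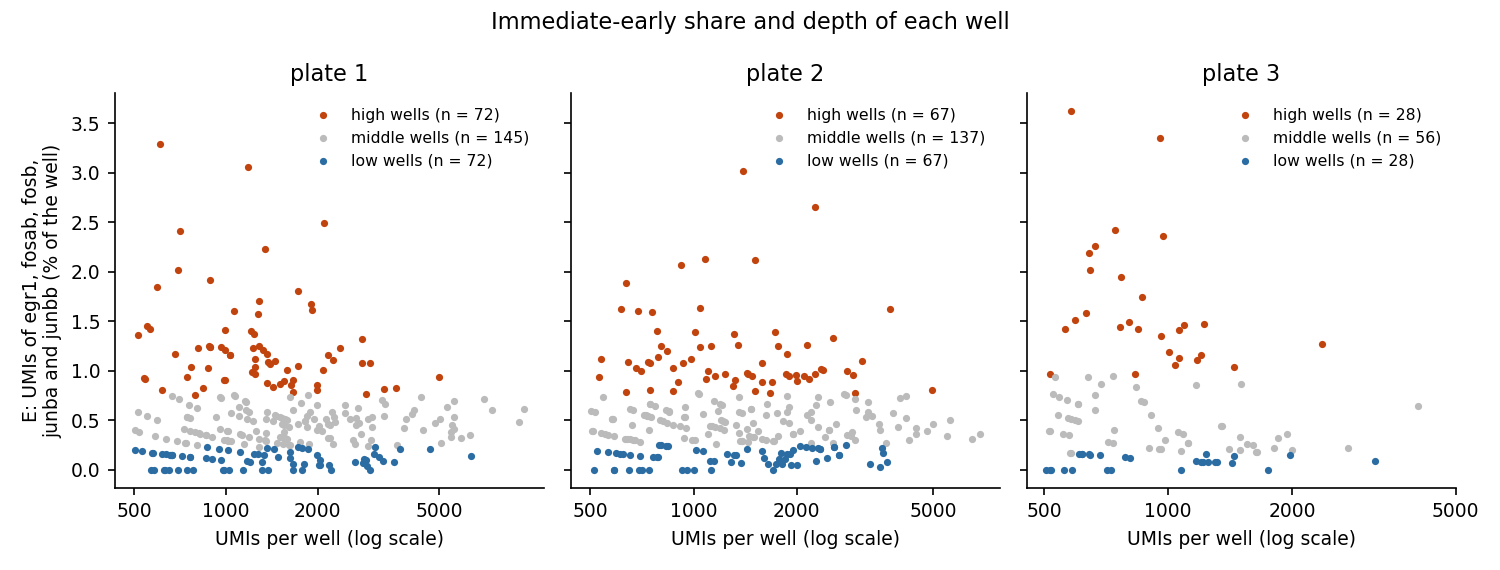
Share E (vertical, % of the UMIs of a well) against depth (horizontal, UMIs per well, log scale) for each of the 672 wells, by plate; red points are high wells, grey middle wells and blue low wells. The classes are bands of E that meet at their edges, and high wells reach 3.29%, 3.02% and 3.62% in plates 1, 2 and 3.

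The 5 genes that define E did not supply it equally. Of their UMIs in high wells, 51.9% came from fosab, 18.9% from egr1, 15.7% from junba, 7.65% from junbb and 5.80% from fosb. Of the 167 high wells, 167 had a UMI of fosab, 145 of egr1, 143 of junba, 105 of junbb and 73 of fosb. Of the 167 low wells, 73 had a UMI of fosab, 46 of egr1, 53 of junba, 23 of junbb and 7 of fosb. After each well was thinned to 500 UMIs, the high wells with a UMI were 158 for fosab, 113 for egr1, 98 for junba, 63 for junbb and 47 for fosb, and the low wells 30, 21, 25, 11 and 3 in the same order of genes. The tables mark no empty well, so free RNA in wells was not measured. At least 3 of the 5 genes were detected together in 70, 57 and 27 high wells of plates 1, 2 and 3, and in 7, 12 and 0 low wells.

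In summed wells, egr1 stood at 2169.5, 2349 and 2886 CPM in high wells of plates 1, 2 and 3, against 296, 219 and 172 in low wells. The middle wells lay between, at 1068, 996 and 1027. The AP-1 gene fosab had 6178, 6244 and 7772 CPM in high wells, against 506, 563 and 413 in low wells. Its close relative fosb had 652, 542 and 1616 in high wells, against 17.4, 47.7 and 0 in low wells. The Jun-family gene junba had 1985, 1737 and 2424 in high wells, against 235, 382 and 138 in low wells. Its paralogue junbb had 1031, 813 and 1077 in high wells, against 61.0, 162 and 138 in low wells. This separation is what the ranking made, so it carries no test.

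A gene left out of its own ranking could be compared between classes that its own UMIs had not chosen. Each of the 5 genes was removed from E in turn, the wells were ranked again by the other 4, and the removed gene was tested with edgeR across all genes. Without its own UMIs in the ranking, egr1 had 1960.2, 2009 and 2483 CPM in high wells and 439.7, 529 and 360.5 in low wells, with no overlap (log2 difference 2.11, SE 0.21, edgeR adjusted p = 4.3e-09). Ranked without itself, fosab had 4783, 4648 and 5089 in high wells and 1094, 1403 and 1105 in low wells (log2 difference 1.92, SE 0.15, edgeR adjusted p = 6.2e-06). The 3 remaining genes were also higher, with log2 differences of 3.17 for fosb (SE 0.36), 1.67 for junba (SE 0.23) and 1.83 for junbb (SE 0.26), and edgeR adjusted p-values of 4.0e-07, 0.0014 and 0.00019. In low wells fosb had 53.9, 76.5 and 65.0 CPM there, so it could pass the expression filter through the high wells alone. The 5 genes thus varied together from well to well. They were put in E as a known set, so this is no independent support for the classes. Whether reads shared by junba and junbb were kept apart is not stated, so these 2 rows may not be independent. A second check split the UMIs of each well at random and ranked wells by one part. In the UMIs held out, the 5 genes summed to 10559, 9584 and 14598 CPM in high wells of plates 1, 2 and 3, against 2184, 2430 and 2384 in low wells. Both parts come from the same wells and the same 5 genes, so this is a description and likewise no independent support for the classes.

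Among the other genes, more were higher than lower in high wells. Of 1315 genes that passed the expression filter, 65 were called at an edgeR adjusted p under 0.05, which is 4.94% of those tested. Of these, 55 were higher in high wells (4.18%) and 10 lower (0.76%), and 244 genes had an unadjusted p under 0.05. The median log2 difference over all genes tested was -0.03. All 3 high sums lay above all 3 low sums for 195 genes (14.8%) and below them for 109 (8.29%). Of the 55 genes called higher, 54 showed such separation, her6 being the exception, and of the 10 called lower 9 did, mmp9 being the exception. The mean of the middle wells, which were not in the test, lay between the means of the high and low wells for 54 of the 55 and 9 of the 10 (the exceptions were epas1b and AC024175.20). Genes are called because their high and low sums lie apart, so a middle mean between them carries no test. Its share over all genes tested was not counted.

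The number of calls depended on the plates. Without plate 1, 4 of the 60 calls that could still be tested were kept, namely jun, batf, ier2 and btg2. Without plate 3, 27 of 64 were kept, and without plate 2, 42 of 62. In each of these 3 fits every call that could still be tested kept its direction. DESeq2 called 33 genes, of which 28 were higher and 5 lower in high wells. Without the wells rich in leukocyte RNA, 84 genes were called, 70 higher and 14 lower, and the 64 of the 65 that could be tested were all called again. When wells were ranked on one random part of the UMIs and tested on the other, 42 of 670 genes were called, 32 higher and 10 lower.

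**Figure D2:**
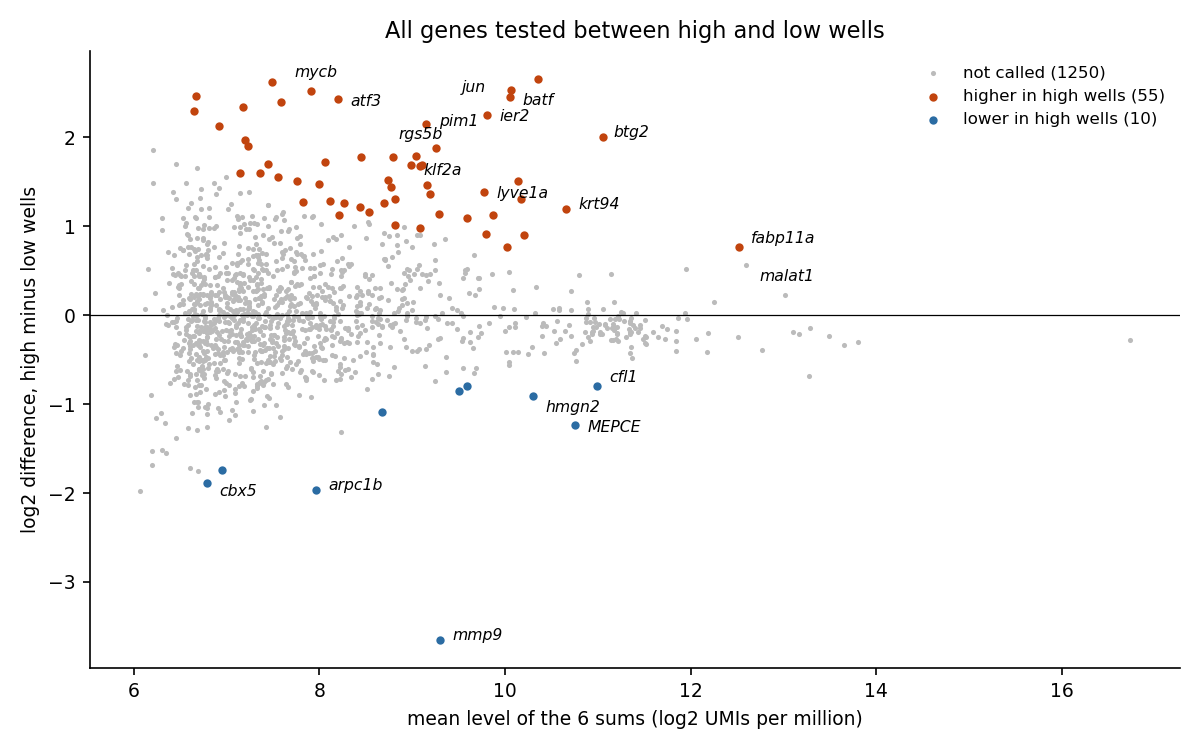
Log2 difference between high and low wells (vertical) against the mean level of the 6 sums (horizontal, log2 CPM) for each of the 1315 genes tested; red points are the 55 genes called higher in high wells, blue the 10 called lower and grey the rest. The called genes include jun, btg2 and batf above and mmp9 and cfl1 below, and malat1 is among the genes not called.

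Some immediate-early transcription factors outside E were higher in high wells. Of 27 such genes with a row in the tables, 13 passed the expression filter, of which 7 were called higher and 0 lower, against 4.18% called higher of all genes tested. The median log2 difference of the 13 was 1.36, against -0.03 for all genes tested. The filter needs UMIs in several sums, so genes seen in high wells alone could pass it through those, and the 14 untested members held 62 UMIs in high wells and 50 in low wells. For the lower direction, 0 members had an unadjusted p under 0.05 either, and DESeq2 called 5 members, all higher. Without plate 1, 2 members were called of 11 tested, without plate 3 it was 4 of 13, and without the leukocyte-rich wells 9 of 13.

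The AP-1 subunit gene jun had 1526, 1524 and 2502 CPM in high wells of plates 1, 2 and 3, against 262, 248 and 379 in low wells. Each high sum was several times its low counterpart, and the fitted difference was 5.79-fold (log2 2.53, SE 0.20, edgeR adjusted p = 7.2e-07). The Jun-family gene jund, usually expressed more evenly than jun, had 817, 731 and 1016 in high wells and 201, 420.4 and 310.2 in low wells (log2 1.36, SE 0.28, edgeR adjusted p = 0.0069). The stress-induced bZIP factor atf3 had 246, 427 and 860.0 in high wells and 69.8, 57.3 and 103 in low wells. It was called at a log2 difference of 2.43 (SE 0.36, edgeR adjusted p = 0.0006), and 12.3% of its UMIs in the 2 classes came from a single well. At its low levels in the low wells, atf3 could pass the expression filter through the high wells alone.

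Other immediate-early factors followed. The Myc gene mycb had 561, 457 and 195 CPM in high wells and 69.8, 86.0 and 68.9 in low wells (log2 2.52, edgeR adjusted p = 0.00034). In plate 3 it rested on 5 UMIs in high wells and 2 in low wells. With its low levels in all low sums, mycb could pass the expression filter through the high wells alone. The gene ier2, an early response gene, had 1349, 1321 and 1759 in high wells and 271, 239 and 414 in low wells (log2 2.25, edgeR adjusted p = 4.8e-06). A separate row named IER2 in capitals, not on the list, had 236, 234 and 469 in high wells and 61.1, 9.56 and 68.9 in low wells (log2 2.62, edgeR adjusted p = 0.0033). How reads shared by these rows were assigned is not given in the sources used here, so they may not be independent. Likewise higher were ier5 (log2 1.47, edgeR adjusted p = 0.018) and cebpd, a C/EBP factor of the acute-phase response (log2 1.90, edgeR adjusted p = 0.016). With 113, 28.7 and 34.5 CPM in low wells of plates 1, 2 and 3, cebpd could also pass the filter through the high wells alone.

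The 6 factors not called were fosl1a, fosl2, nr4a1, mafba, cebpb and csrnp1b, with log2 differences of 0.63 to 1.03 and edgeR adjusted p-values of 0.073 to 0.5. The orphan nuclear receptor gene nr4a1 had 295, 315 and 704 CPM in high wells and 96.0, 153 and 931 in low wells. The C/EBP gene cebpb had 926, 619.6 and 938 in high wells and 244, 287 and 1861 in low wells. For both genes the groups overlapped through the low wells of plate 3, which include the wells rich in leukocyte RNA. Without those wells cebpb was called (edgeR adjusted p = 0.01), as was fosl2 (0.011), and nr4a1 was not (0.12).

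**Figure D3:**
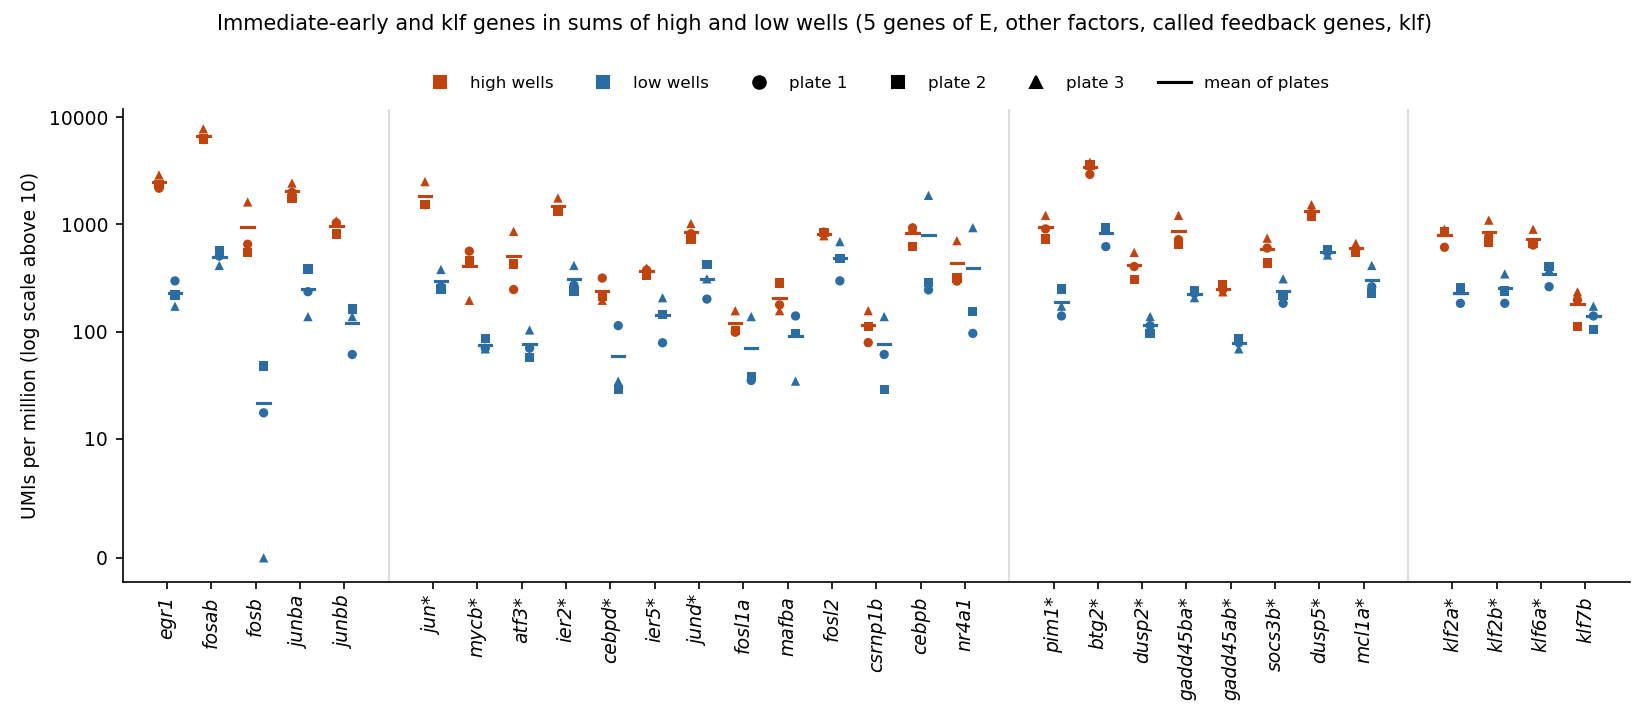
CPM (vertical, log scale above 10) in the summed high wells (red, left of each pair) and low wells (blue) of plates 1 (circle), 2 (square) and 3 (triangle), with the mean of the plates as a bar; asterisks mark genes called. From left to right are the 5 genes of E, the 13 other factors tested, the called feedback genes and the klf genes. The high sums of jun, btg2, klf2a and klf2b lie above their low sums without overlap, as for 14.8% of all genes tested.

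Of 44 genes of feedback and signalling in the immediate-early response with a row, 20 passed the filter. Of these 8 were called higher, 0 lower and 12 were not called, against 4.18% called higher of all genes tested. Their median log2 difference was 1.03, again against -0.03 for all genes tested, and DESeq2 called 5 of them. The filter could again be passed through high wells alone, and the 24 untested members held 169 UMIs in high wells and 139 in low wells. The gene btg2, which restrains proliferation and promotes mRNA deadenylation, had 2925, 3586 and 3792 CPM in high wells and 619.6, 927 and 931 in low wells. The lowest high sum was over 3 times the highest low sum, and the fitted difference was 4.01-fold (log2 2.00, SE 0.16, edgeR adjusted p = 7.2e-07). The kinase gene pim1 had 906, 731 and 1212 in high wells and 139.6, 248 and 172 in low wells (log2 2.15, SE 0.29, edgeR adjusted p = 0.00029). Of the 8, btg2 alone was called without plate 1, and 5 genes of the list were called without plate 3.

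Among the dual-specificity phosphatase genes, which switch off MAP kinases, 2 of 5 tested were called higher, where 4.18% of all genes tested were. The gene dusp5, for a nuclear phosphatase acting on ERK, had 1270.3, 1178 and 1525 CPM in high wells and 549.8, 583 and 517 in low wells (log2 1.13, SE 0.19, edgeR adjusted p = 0.0016). The gene dusp2, also counted among the T and NK cell markers, had 404, 305 and 547 in high wells and 113, 95.6 and 138 in low wells (log2 1.72, SE 0.32, edgeR adjusted p = 0.0032). By contrast dusp1, which encodes a phosphatase of JNK and p38, had 177, 203 and 156 in high wells and 52.4, 105 and 551 in low wells. It was higher in the high wells of plates 1 and 2 and lower in those of plate 3, and was not called (log2 0.37, SE 0.50, edgeR adjusted p = 0.75). Without the leukocyte-rich wells the difference of dusp1 was 1.16 (SE 0.44, edgeR adjusted p = 0.13), still not called. Neither dusp6 (log2 0.46) nor dusp16 (log2 -0.41) was called.

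The growth-arrest genes gadd45ba and gadd45ab, whose proteins bind stress-activated kinase partners, were both called. Levels of gadd45ba were 719, 650.1 and 1212 CPM in high wells and 227, 239 and 207 in low wells (log2 1.67, SE 0.27, edgeR adjusted p = 0.0011). Its relative gadd45ab was 246, 274 and 235 in high wells and 78.5, 86.0 and 68.9 in low wells (log2 1.59, edgeR adjusted p = 0.021). At these low levels in the low wells, gadd45ab could pass the expression filter through the high wells alone. The last 2 calls of this list were socs3b, an inhibitor of cytokine signalling through JAK and STAT (log2 1.27, edgeR adjusted p = 0.014), and mcl1a, a survival gene of the Bcl-2 family (log2 1.02, edgeR adjusted p = 0.036). The RNA-decay genes zfp36l2 and zfp36l1b had log2 differences of 1.05 and 0.90 and edgeR adjusted p-values of 0.053 and 0.058. Their high sums lay above their low sums without overlap, as for 14.8% of all genes tested. The remaining members not called were btg1, sgk1, per1b, mcl1b, hbegfa, plk2b and tob1b, at log2 differences of 0.12 to 1.38.

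Flow-responsive klf genes encode Kruppel-like factors, of which Klf2 is known for its induction by laminar flow in endothelium. Of 12 with a row, 4 passed the filter and 3 were called higher, with 0 lower, where 4.18% of all genes tested were called higher. The median log2 difference of the 4 was 1.33. The gene klf2a had 611, 853 and 899 CPM in high wells and 183, 258 and 241 in low wells (log2 1.69, SE 0.26, edgeR adjusted p = 0.00082). Its paralogue klf2b had 768, 681 and 1095 in high wells and 183, 239 and 345 in low wells (log2 1.68, SE 0.26, edgeR adjusted p = 0.00087). The 2 rows differed by nearly the same amount, and whether reads shared by them were kept apart is not stated. For klf6a the difference was smaller, with 640.1, 670.4 and 899 in high wells and 262, 401 and 379 in low wells (log2 0.98, SE 0.25, edgeR adjusted p = 0.032). The fourth, klf7b, was not called (log2 0.28, edgeR adjusted p = 0.77). Without plate 1 none of the 4 was called, although klf2a and klf2b were called without plate 2 and without plate 3.

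Several genes outside these lists were among the largest differences. Such a ranking favours genes that are low in all low wells. Of these, ppp1r15a and IER2 could pass the expression filter through the high wells alone. The clone-named row CU019646.2, for which no annotation was used here, had 1949.7, 1707 and 3284 CPM in high wells and 236, 411 and 241 in low wells (log2 2.66, SE 0.23, edgeR adjusted p = 1.3e-06). The gene batf, for a bZIP protein that pairs with Jun, had 1861, 1615 and 1916 in high wells and 271, 315 and 379 in low wells (log2 2.46, SE 0.20, edgeR adjusted p = 7.2e-07). The gene ppp1r15a, whose product directs a phosphatase to the translation factor eIF2-alpha, had 286, 335 and 352 in high wells and 26.2, 86.0 and 68.9 in low wells (log2 2.39, SE 0.41, edgeR adjusted p = 0.0016). For these 3 genes all high sums lay above all low sums, as for 14.8% of all genes tested.

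The cell-surface proteoglycan gene sdc4 had 689, 762 and 1446 CPM in high wells and 139.6, 239 and 379 in low wells (log2 1.88, SE 0.26, edgeR adjusted p = 0.00031). The amine oxidase gene aoc2 had 246, 223 and 274 in high wells and 26.2, 66.9 and 34.5 in low wells (log2 2.34, edgeR adjusted p = 0.006). The cholesterol hydroxylase gene ch25h had 286, 152 and 313 in high wells and 61.1, 66.9 and 0 in low wells, the last from 0 UMIs (log2 1.97, edgeR adjusted p = 0.028). For these 3 genes all high sums lay above all low sums, as for 14.8% of all genes tested, and aoc2 and ch25h could pass the expression filter through the high wells alone.

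The gene rgs5b, for a regulator of G-protein signalling widely used to mark mural cells, had 729, 1016 and 743 CPM in high wells and 297, 191 and 172 in low wells (log2 1.79, SE 0.28, edgeR adjusted p = 0.00092). The 10 mural markers with a row held 222 UMIs in high wells, of which 193 were rgs5b and 19 its paralogue rgs5a, and 73 in low wells, of which 59 were rgs5b and 3 rgs5a. Smooth-muscle acta2 and the pericyte gene cspg4 were at 0 in both classes. The other members were low, and tagln had 1 UMI in high wells and 2 in low wells, myh11a 7 in high wells and 5 in low wells, and abcc9 2 in high wells and 0 in low wells. Without wells in which any list of another cell type, mural markers included, reached 1% of UMIs, rgs5b differed by 1.36 (edgeR adjusted p = 0.026).

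Some endothelial genes were higher in high wells too, though most were not called. Of 17 pan-endothelial markers tested, 2 were called higher (median log2 0.31), of 14 blood vessel markers 3 (median 0.54) and of 10 lymphatic markers 2 (median 0.14), with 0 lower in each, against 4.18% called higher of all genes tested. The pan-endothelial and blood vessel lists share kdrl, kdr, vsg1 and si:dkey-208k22.3, and si:dkey-208k22.3 counts as a call in both. Of 11 junction and adhesion genes tested, 2 were called higher (median 0.06). One of them, cdh5, was also counted as a call in the pan-endothelial list. Differences were above 0 for 12 of 17 pan-endothelial and 12 of 14 blood vessel markers. They were above 0 for 5 of 10 lymphatic markers and 7 of 11 junction genes. The gene of the sorting reporter, fli1a, had 120 UMIs in high wells and 143 in low wells. Without plate 1 no member of these 4 lists was called. The sums over wells do not separate more cells of a vessel type from more RNA of its genes per cell. Single wells were not tested for this.

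The gene cdh5, for VE-cadherin of the endothelial adherens junction, had 798, 995 and 782 CPM in high wells and 297, 354 and 207 in low wells (log2 1.46, SE 0.24, edgeR adjusted p = 0.0013). The tight-junction gene jam2a had 433, 437 and 352 in high wells and 148, 229 and 172 in low wells (log2 1.12, edgeR adjusted p = 0.037). The row si:dkey-208k22.3, a synonym of the diaphragm gene plvapa, had 581, 711 and 625 in high wells and 209, 219.8 and 207 in low wells (log2 1.51, edgeR adjusted p = 0.0024). In each of these 3 genes all high sums lay above all low sums, as for 14.8% of all genes tested.

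Of the blood vessel markers, the water channel gene aqp1a.1 had 896, 772 and 1016 CPM in high wells and 367, 430.0 and 276 in low wells (log2 1.14, edgeR adjusted p = 0.011). The fatty acid binding protein gene fabp11a had 8232, 7629 and 6607 in high wells and 4913, 5408 and 2413 in low wells (log2 0.76, SE 0.16, edgeR adjusted p = 0.0087). Of the lymphatic markers, lyve1a, a hyaluronan receptor gene, had 1428, 863 and 1681 in high wells and 585, 363 and 345 in low wells (log2 1.39, SE 0.22, edgeR adjusted p = 0.00092). The cathepsin gene ctsla had 1123, 1107 and 1368 in high wells and 619.6, 612 and 483 in low wells (log2 0.91, edgeR adjusted p = 0.012). Genes of both vessel types were thus among those called.

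The hypoxia-inducible factor gene epas1b had 551, 599 and 430.0 CPM in high wells and 113, 162 and 241 in low wells (log2 1.77, SE 0.32, edgeR adjusted p = 0.0024), the one call among 8 hypoxia and glycolysis genes tested (median log2 0.43), where 4.18% of all genes were called higher. Its difference fell to 1.15 without wells in which any list of another cell type reached 1% (edgeR adjusted p = 0.098). With wells thinned to 500 UMIs it was 0.82 (edgeR adjusted p = 0.29), and epas1b was called in neither setting. The middle wells averaged 162, below both classes. The Notch target gene her6 had 108, 345 and 586 in high wells and 61.1, 124 and 68.9 in low wells, so that the high sum of plate 1 lay below the low sum of plate 2. It was the one call among 8 Notch genes tested, with a median log2 difference of 0.62 (her6 2.83-fold, SE 0.40 on the log2 scale, edgeR adjusted p = 0.037). A single well gave 15.9% of its UMIs. At its levels in the low wells, her6 could pass the expression filter through the high wells alone.

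The 10 genes lower in high wells were hmgn2, hmga1a, h2afvb, cbx5, cfl1, arpc1b, psmb7, mmp9, MEPCE and AC024175.20. The nucleosome-binding gene hmgn2 had 1034, 924 and 743 CPM in high wells and 1745, 1739 and 1379 in low wells (log2 -0.91, SE 0.16, edgeR adjusted p = 0.0022). The architectural chromatin gene hmga1a had 512, 508 and 586 in high wells and 847, 956 and 931 in low wells (log2 -0.85, edgeR adjusted p = 0.028). The histone variant gene h2afvb had 335, 183 and 274 in high wells and 637, 373 and 655 in low wells (log2 -1.09, edgeR adjusted p = 0.028). The heterochromatin gene cbx5 had 68.9, 40.6 and 39.1 in high wells and 201, 210.2 and 103 in low wells (log2 -1.89, edgeR adjusted p = 0.023). All high sums lay below all low sums for these 4 genes, as for 8.29% of all genes tested.

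The cofilin gene cfl1, whose product severs actin filaments, had 1536, 1564 and 1368 CPM in high wells and 2426, 2331 and 2998 in low wells (log2 -0.80, SE 0.16, edgeR adjusted p = 0.006). The Arp2/3 subunit gene arpc1b had 88.6, 71.1 and 78.2 in high wells and 218, 248 and 793 in low wells (log2 -1.96, SE 0.39, edgeR adjusted p = 0.006). These were the 2 called of 19 actin, thymosin and motility genes tested, whose median was -0.14, where 0.76% of all genes were called lower. The proteasome gene psmb7 (log2 -1.74, edgeR adjusted p = 0.035) and AC024175.20 (log2 -0.80, edgeR adjusted p = 0.033), one of 19 clone-named rows counted here with the mitochondrial rows, were also lower. Low in all high sums, cbx5, arpc1b and psmb7 could pass the expression filter through the low wells alone.

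The low wells of plate 3, with their leukocyte RNA, stood far above all other sums in 3 of the lower genes, mmp9, MEPCE and arpc1b. The gelatinase gene mmp9, a marker of neutrophils, had 39.4, 0 and 274 CPM in high wells and 541, 38.2 and 2895 in low wells (log2 -3.65, SE 0.38, edgeR adjusted p = 1.1e-05). Of its UMIs, 32.3% came from 1 low well of plate 1. Without the wells of at least 1% leukocyte markers mmp9 had 4, 0 and 7 UMIs in high wells and 10, 4 and 6 in low wells, too few to be tested. The row MEPCE, named for a capping enzyme of 7SK RNA, had 788, 660.3 and 938 in high wells and 1152, 1079.7 and 5721 in low wells (log2 -1.24, edgeR adjusted p = 0.012). Without those wells its difference was -0.70 (edgeR adjusted p = 0.027), that of arpc1b -1.43 (0.049) and that of cfl1 -0.72 (0.0017). The 13 neutrophil markers summed to 749, 341 and 808 CPM in high wells and 3635, 506 and 6853 in low wells, and the 18 macrophage markers to 19.5, 50.2 and 192 in high wells and 244, 209.9 and 3650.1 in low wells. The neutrophil genes csf3r and il6r were at 0 in both classes, whereas mpx had 3 UMIs in high wells and 60 in low wells.

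**Figure D4:**
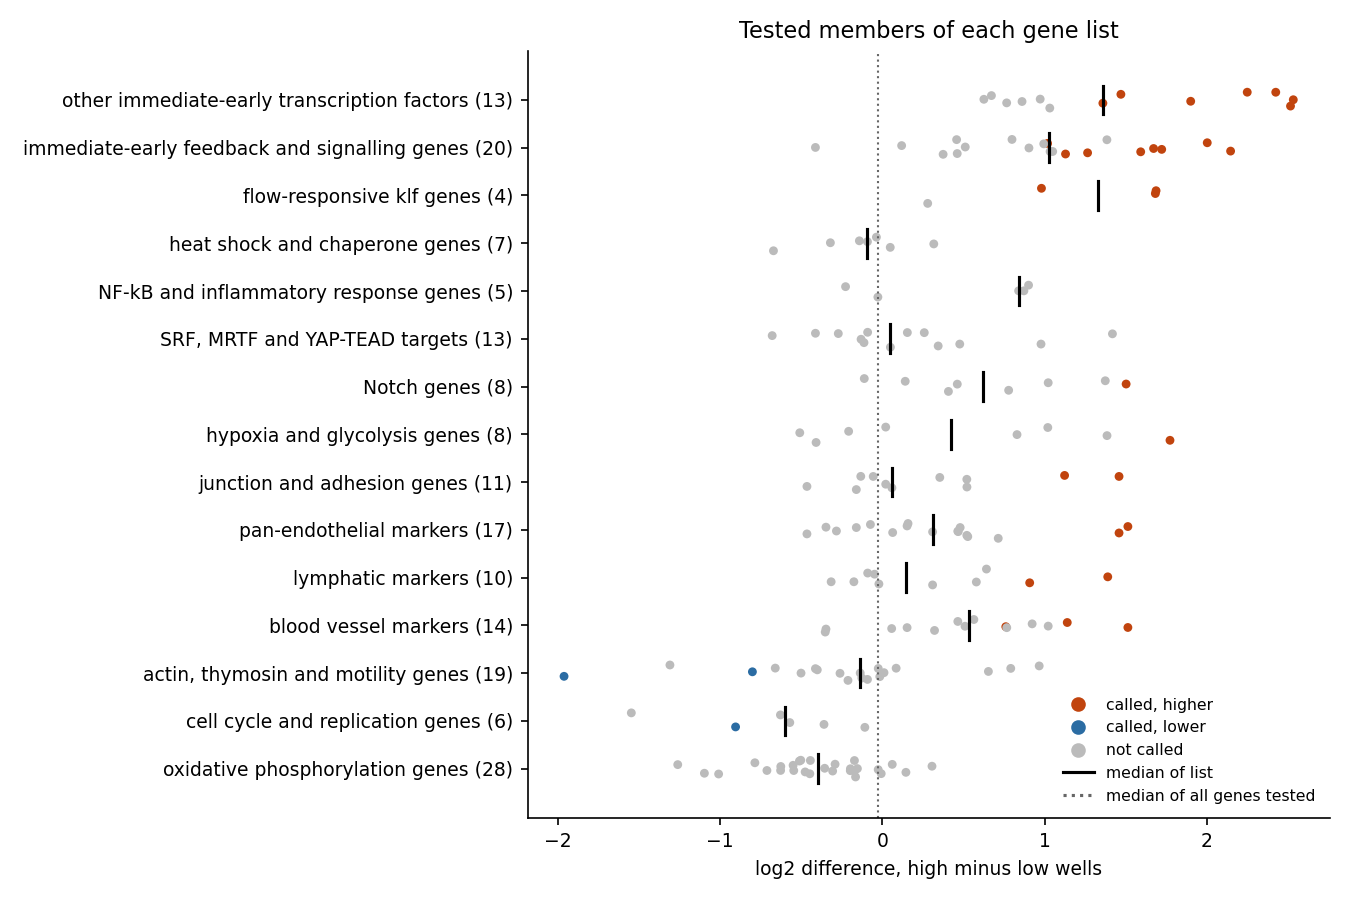
Log2 difference between high and low wells (horizontal) for each tested member of 15 gene lists, with the number tested in brackets; red points were called higher, blue called lower and grey not called, black ticks are list medians and the dotted line is the median of all genes tested. The immediate-early and klf lists have medians of 1.36, 1.03 and 1.33, and the oxidative phosphorylation list one of -0.40.

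Other lists held 0 or 1 call, where 4.94% of all genes tested were called, so that lists of this size would hold few calls at that share. Of 7 heat shock and chaperone genes tested, 0 were called in either direction (median log2 -0.09), as were 0 of 5 NF-kB and inflammatory response genes (median 0.84), 0 of 13 SRF, MRTF and YAP-TEAD targets (median 0.05) and 0 of 4 BMP and TGF-beta response genes (median 0.38). The chaperone gene hspa8 had 1605, 1757 and 1525 CPM in high wells and 1711, 2073 and 2240 in low wells (log2 -0.32, edgeR adjusted p = 0.30). Of 28 nuclear genes of oxidative phosphorylation 0 were called, with a median of -0.40 and 25 of the 28 below 0. Of 6 cell cycle and replication genes tested, hmgn2 was the one called, and the median was -0.60. Of the 6, 0 were above 0, and edgeR gave 4 an unadjusted p under 0.05, all lower, against 87 lower of all 1315 tested. The 29 with a row summed to 4281, 4076 and 2770 CPM in high wells, against 5954, 6384 and 4855 in low wells. Of these lists without a call, edgeR gave an unadjusted p under 0.05 to 0 heat shock genes and to 3 NF-kB genes and 1 BMP gene, all higher. The same held for 3 oxidative phosphorylation genes, all lower, and for SRF and YAP targets, 1 higher and 2 lower. Over all 1315 genes tested, 157 were higher and 87 lower at that unadjusted p. DESeq2 called 0 genes in each of these lists without a call.

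RNA of keratins differed between the classes as well. Of 4 keratinocyte markers tested, krt4, krt15 and krt94 were called higher, where 4.18% of all genes tested were. The fourth, krt8, was not called (log2 0.52). It had a UMI in 161 high and 151 low wells. It gave 1123 of the 1998 keratinocyte-marker UMIs in high wells and 780 of 1186 in low wells. Levels of krt94 were 2344, 2580.1 and 1720.1 CPM in high wells and 672, 1175 and 1172 in low wells (2.29-fold, SE 0.20 on the log2 scale, edgeR adjusted p = 0.0013). Those of krt4 were 1103, 884 and 1251 in high wells and 471, 468 and 448 in low wells (log2 1.09, edgeR adjusted p = 0.006), and krt15 differed by 1.28 (edgeR adjusted p = 0.019). The 19 keratinocyte markers with a row summed to 9690, 8202 and 7118 in high wells and 4289, 5219 and 5062 in low wells. Of them 12 were at 0 in high wells, including the basal keratinocyte genes krt5 and tp63 and the epithelial genes epcam, cldna, cldne and cldni, while low wells held 3 UMIs of tp63 and 4 of epcam. At least 1% of UMIs came from these markers in 28, 26 and 6 high wells of plates 1, 2 and 3 and in 8, 6 and 4 low wells. Without these wells 48 genes were called in all, 43 higher and 5 lower, and the immediate-early and klf lists had 6, 8 and 3 genes higher. There krt94 was called (log2 0.93, edgeR adjusted p = 0.026), and krt4 (0.86, 0.12) and krt15 (0.48, 0.62) were not, in wells chosen by the level of these genes. The call of krt94 was lost without wells in which any list of another cell type reached 1% (0.86, 0.051). It was also lost without plate 1 (0.85, 0.25) and for E without fosab (0.21, 0.92).

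**Figure D5:**
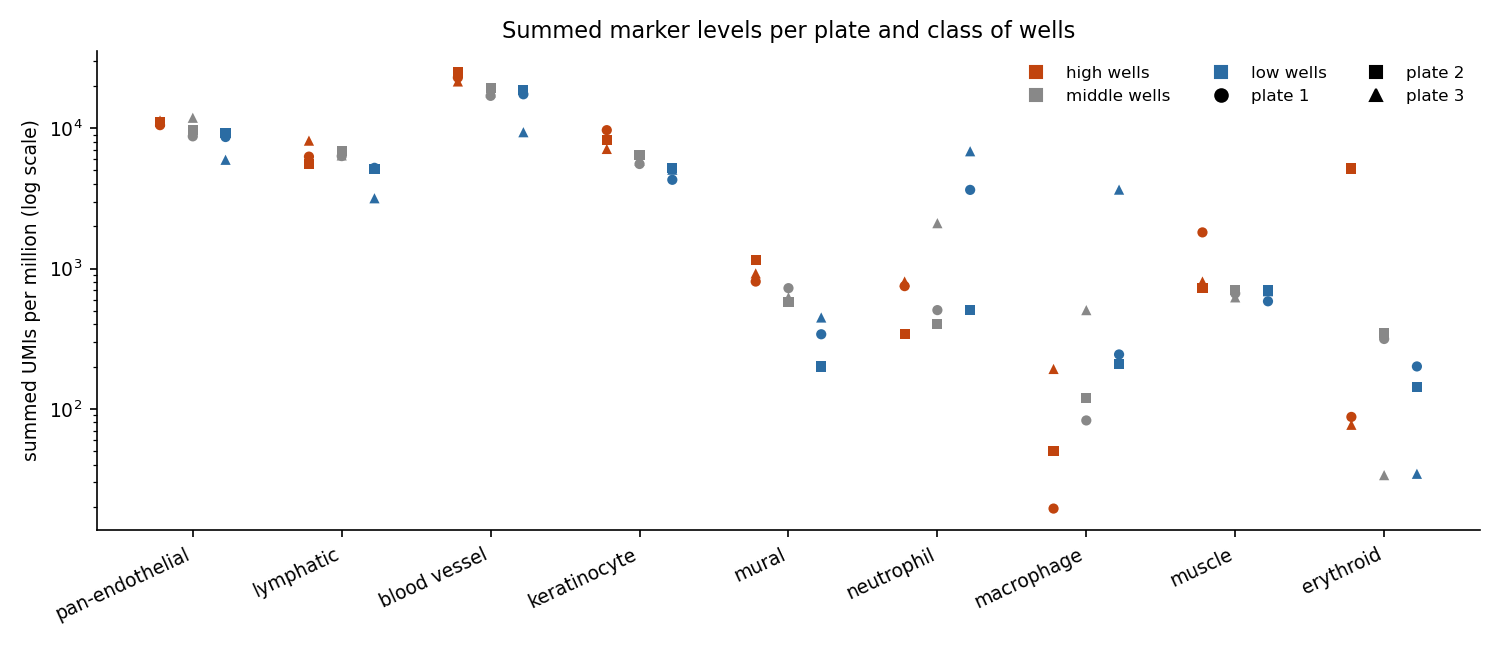
Summed level of each marker list (vertical, CPM, log scale) in high (red), middle (grey) and low wells (blue) of plates 1 (circle), 2 (square) and 3 (triangle). Neutrophil and macrophage sums are highest in the low wells of plate 3, at 6853 and 3650.1, keratinocyte sums are higher in the high wells of each plate, and the erythroid sum of 5170.2 in high wells of plate 2 comes mostly from 1 well.

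Muscle markers summed to 1810, 723 and 808 CPM in high wells and 584, 697 and 689 in low wells, with 92 of the 186 UMIs of plate 1 high wells in a single well, and the high wells of plate 2 had 1 well with 481 UMIs of erythroid markers. The part of these other cell types in the gene differences was tested only by leaving wells out. Any such list reached 1% in 30, 28 and 6 high wells and in 10, 7 and 11 low wells of plates 1, 2 and 3. RNA of krt8 was found in 161 high and 151 low wells, and whether a well that reached 1% held another cell type was not tested. Without these wells, 38 of 802 genes were called, 34 higher and 4 lower. The 2 immediate-early lists then had 8 and 6 genes higher and the klf list 3. Of their earlier calls cebpd, gadd45ab and socs3b were lost there (edgeR adjusted p = 0.068, 0.076 and 0.11).

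Mitochondrial RNA made up 17.9%, 16.7% and 12.4% of UMIs in high wells of plates 1, 2 and 3, against 20.7%, 21.2% and 13.7% in low wells. Of 13 mitochondrial rows tested, 1 was called lower and 0 were above 0, with a median log2 difference of -0.41. For 11 of them edgeR gave an unadjusted p under 0.05, all lower, against 87 lower of all 1315 genes tested. Ribosomal protein genes made up 16.8%, 15.2% and 15.4% in high wells, against 17.3%, 16.1% and 18.1% in low wells, and 0 of 71 tested were called by edgeR (5 at an unadjusted p under 0.05) or DESeq2. The part of mitochondrial content in the gene differences was not tested beyond leaving these rows out, after which 48 genes were called, 41 higher and 7 lower. The nuclear RNA malat1 had 5770.4, 6684 and 16693 CPM in high wells and 7523, 6841 and 6031 in low wells. It was far higher in the high wells of plate 3 alone and was not called (log2 0.22, SE 0.23, edgeR adjusted p = 0.67). Without plate 3 its difference was -0.26.

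High and low wells were found in both column ranges of each plate. In columns 1 to 12 lay 48 of 72, 37 of 67 and 18 of 28 high wells of plates 1, 2 and 3. Of the low wells 44 of 72, 38 of 67 and 18 of 28 lay there, and of the middle wells 61 of 145, 77 of 137 and 26 of 56. In plates 1 and 3 both high and low wells thus lay there more often than middle wells did, without a test. On the outer rim lay 22, 15 and 1 high wells, against 10, 10 and 7 low wells, so that plates 1 and 2 had more high wells there and plate 3 fewer. Of coordinates with a ranked well in both plates 1 and 2, 14 were high in both, which is 24.6% of the high wells of plate 1 and 25.9% of those of plate 2 at such coordinates. High wells made up 25.6% and 24.2% of all those coordinates in plates 1 and 2. For plates 1 and 3 the count was 2, of 20 high wells of plate 1 and 26 of plate 3 (7.69%), where high wells made up 22.5% and 29.2% of the shared coordinates in plates 1 and 3. For plates 2 and 3 it was 6, or 35.3% of the high wells of plate 2 and 26.1% of those of plate 3, where high wells made up 20.7% and 28.0%. Sharing was thus less frequent than the share of high wells in plates 1 and 3 and more frequent in plates 2 and 3, from few wells and without a test.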

How the data were processed

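MARS-seq libraries of 3 plates were analysed. The authors deposited, per plate, a table of raw UMI counts per gene and well (25839 rows), with lists of wells and of analysed wells. Per the submitters' processing notes, reads were handled with Bowtie2 and the build GRCz10. For the annotation, UMI collapsing and read filters, the sources used here name nothing. The 92 spike-in rows were at 0. Doublets were not called.

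Counts of high and low wells were summed per plate, giving 6 sums, and tested with edgeR 4.0.16 (R 4.3.3): TMM scaling, filterByExpr, plate as block because both classes come from the same plate and library, quasi-likelihood F-test, Benjamini-Hochberg adjustment and a threshold of 0.05. The 5 genes of E were left out of library sizes and tests, except that a gene removed from E was kept in the fit for that ranking. Its level there is per 1000000 UMIs outside the genes still in E. Levels of E's genes and marker lists are counts per 1000000 of all UMIs (CPM), and those of other genes per 1000000 UMIs outside the 5. SE is the size of the log2 difference divided by the square root of F. The test moderates each gene's spread, and 3 pairs alone cannot reach an exact two-sided permutation p below 0.25. The scripts were tested on simulated data. Named are the 5 genes of E, the 15 largest called differences per direction with at least 50 UMIs and the same direction in all plates, all tested immediate-early and klf genes, called members of other lists, and malat1. The classes, lists and rules were chosen with earlier results of these data known. Plates were left out in turn, and 22 other settings, plate omissions among them, were tried (DESeq2 1.42.0 among them). No coordinates or sequences are printed.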

Additional observations from a re-analysis of the deposited data

Results flagged for a closer look

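Wells that the report does not use also held immediate-early RNA. In the 116 wells of plate 3 that are not on the list of analysed wells, 399 UMIs belonged to egr1, fosab, fosb, junba and junbb. That is 0.520% of their 76768 UMIs, against 0.601% in the listed wells of the same plate. Their median depth was 296.5 UMIs per well.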

How the results depend on the processing

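Of 65 genes called, the count stayed within 1.5 times that number without the expression filter (85), with no replicate block (57), with library-size scaling (69) and in wells of at least 800 UMIs (47). It was 33 with DESeq2, 32 of 405 tested with wells thinned to 500 UMIs, and 42 of 670 with classes and test on separate UMIs. Without wells in which a list of another cell type reached 1% it was 38 of 802. It lay between 4 (without plate 1) and 52 with a plate left out. Chosen after seeing the data, E without fosab gave 28 calls and E without junba 41, and wells of at least 250 but under 500 UMIs gave 0 of 68 tested by edgeR, 9 at an unadjusted p under 0.05. The cause of these changes was not tested. Fewer UMIs and genes entered the thinned, split and shallow fits. Every call that could be tested kept its sign, apart from krt94 at -0.55 in those shallow wells, where only 5 of the 65 could be tested. By summed share in the shallow wells, 38 of the 55 genes called higher kept their direction, as did 5 of the 10 called lower, many from few UMIs. Of genes not called, dusp1 ranged from -0.25 (without plate 1) to 1.23 (without plate 3) and malat1 from -0.26 (without plate 3) to 0.61 (without plate 1), while sgk1 turned to -0.36 for E without fosab and klf7b to -0.043 for E without junbb. Over the 48 named genes called, 239 of 963 values lost the call and 723 kept it. Over the 20 not called, 23 of 365 gained one. Depth limits what could be called: 1315 of 25839 rows were tested.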

Other observations

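Genes called outside the naming rule, picked here after their values were seen, include a row named ZFP36, for an RNA-decay factor of the same family as zfp36l1b and zfp36l2. It had 1664, 1554 and 1681 CPM in high wells of plates 1, 2 and 3 and 419, 516 and 931 in low wells (log2 1.51, SE 0.21, edgeR adjusted p = 0.00029). Among endothelial signalling genes, acvrl1, a BMP receptor of endothelium, had 187, 244 and 235 in high wells and 61.1, 86.0 and 34.5 in low wells (log2 1.60, edgeR adjusted p = 0.037). The vascular phosphatase gene ptprb had 453, 559 and 469 in high wells and 218, 201 and 172 in low wells (log2 1.22, edgeR adjusted p = 0.018). The retinoic acid hydroxylase gene cyp26b1 had 256, 264 and 352 in high wells and 87.3, 95.6 and 68.9 in low wells (log2 1.55, edgeR adjusted p = 0.019). In these 4 genes each high sum lay above each low sum, as for 14.8% of all genes tested. Low in all low sums, acvrl1 and cyp26b1 could pass the expression filter through the high wells alone.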
